A study of Mus musculus with 2 samples.

Results

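The data cover 9 carriers of the Slc22 family, Slc22a2, Slc22a6, Slc22a7, Slc22a8, Slc22a12, Slc22a13, Slc22a18, Slc22a28 and Slc22a30. They were taken by symbol from the 31058 genes of the deposited matrices, which hold 25 Slc22 genes in all, and every one of the 9 had counts. The study profiled single cells of whole kidney from female C57Bl/6 mice, 9 weeks old, with the genotype Pax8.rtTA;TetO.Cre;R26.FUCCI2aR. In this line the Pax8 promoter, active in kidney tubules, drives a doxycycline-dependent activator, which turns on Cre and with it a fluorescent cell cycle reporter; whether doxycycline was given is not stated in the sources used here. Both groups had rhabdomyolysis, breakdown of skeletal muscle that injures the kidney, labelled "rabrhabdomyolysis": 1 library came from vehicle treatment and 1 from CA3, reported to inhibit YAP, a coactivator of transcription. How long after injury the kidneys were taken, how much CA3 was given and how many mice made up a library is not stated in those sources. No uninjured kidney was analysed here.

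Carriers of the Slc22 family move organic cations, organic anions, carnitine and urate across the plasma membrane. In the proximal tubule they take drugs, toxins and metabolites from blood at the basolateral side and move urate and other anions at the brush border. Organic anion uptake is driven by exchange against dicarboxylates that sodium-coupled carriers return to the cell. The tubule has successive segments called S1, S2 and S3, and the carriers are known to be spread unevenly along them.

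Because each group is 1 library, no comparison below has a test over samples. Levels are counts of unique molecular identifiers (UMIs, counted transcript molecules) per 1000000 UMIs (CPM), with mitochondrially encoded genes left out of the total, summed over the cells of a class. Ranges in brackets are exact 95% intervals that cover counting error only, and not differences between animals or preparations. After filtering, 1766 vehicle and 1491 CA3 cells were kept, with medians of 7334.5 and 7571 UMIs per cell. Clustering without any Slc22 gene gave 10 proximal tubule clusters with 1435 vehicle and 1160 CA3 cells, and between 9 and 10 of the 10 fixed proximal tubule markers had counts in each. The other classes were thick ascending limb (71 vehicle and 41 CA3 cells), distal convoluted and connecting tubule (77 and 65), endothelial (59 and 45), T or NK (51 and 96) and myeloid cells (38 and 42), beside 33 intercalated cells, 22 podocytes and 22 B cells. A call below means a difference of at least 1.5-fold with at least 20 UMIs. The libraries shared 1 cell barcode.

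Of the 9 members, 5 lie on chromosome 19 of mm10. Slc22a8 (chr19:8591254-8611835) and Slc22a6 (chr19:8618039-8628299) are neighbours on the plus strand with 6203 bases between them. Slc22a28 (chr19:8062209-8131982) and Slc22a30 (chr19:8335371-8405111) lie nearby on the minus strand with Slc22a29 between them, and Slc22a12 (chr19:6535845-6543032) lies apart, overlapping Nrxn2 on the opposite strand. Slc22a2 (chr17:12584132-12628488) and Slc22a7 (chr17:46432183-46438457) are far apart on chromosome 17. Slc22a18 is at chr7:143473736-143499334, in a locus known for imprinting, and Slc22a13 at chr9:119192974-119209098 lies inside the span annotated for Slc22a14 on the same strand, which had 2 UMIs in all kept cells.

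Of the chromosome 19 members, 2 pairs are shown by their promoters because the pairs behaved differently in the cells. The sequences are the 250 bases before the RefSeq start on GRCm38.p6, found for 8 of the 9 members. Slc22a28 and Slc22a30 encode close relatives without a well-defined substrate in the mouse. Capitals mark the 6 positions at which their promoters differ in an ungapped alignment of 244 bases, 97.5% of them identical.
Slc22a28 (chr19:8131983-8132232, minus strand): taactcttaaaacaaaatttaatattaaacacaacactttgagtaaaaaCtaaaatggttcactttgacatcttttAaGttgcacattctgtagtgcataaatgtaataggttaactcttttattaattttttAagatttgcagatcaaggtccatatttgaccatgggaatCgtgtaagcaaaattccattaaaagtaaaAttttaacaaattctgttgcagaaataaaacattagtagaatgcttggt
Slc22a30 (chr19:8405106-8405355, minus strand): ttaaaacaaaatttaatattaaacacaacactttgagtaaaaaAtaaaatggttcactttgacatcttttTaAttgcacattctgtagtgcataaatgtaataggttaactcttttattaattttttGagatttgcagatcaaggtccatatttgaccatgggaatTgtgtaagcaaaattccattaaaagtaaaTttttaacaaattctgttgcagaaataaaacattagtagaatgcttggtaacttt

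Slc22a8 encodes the organic anion transporter OAT3 and Slc22a6 encodes OAT1, the main basolateral uptake carriers for organic anions. In their promoters capitals mark GTTAAT, part of a site of the tubule transcription factor HNF1, searched on both strands. It lies 81 bases upstream of the Slc22a8 start and 56 bases upstream of the Slc22a6 start. These letters occur in 6.43% of 32851 mouse promoter windows of this length and in none of the other 6 members' windows, so the match is a description only. The core CAAAGTCC of sites for HNF4, another tubule factor, was searched too and was found in 0 of the 8 windows and in 1.196% of all.
Slc22a8 (chr19:8592932-8593181, plus strand): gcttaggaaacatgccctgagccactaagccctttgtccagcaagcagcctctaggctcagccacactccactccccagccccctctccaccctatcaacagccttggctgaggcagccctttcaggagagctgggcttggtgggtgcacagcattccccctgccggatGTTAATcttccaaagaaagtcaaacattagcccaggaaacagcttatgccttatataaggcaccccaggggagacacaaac
Slc22a6 (chr19:8617746-8617995, plus strand): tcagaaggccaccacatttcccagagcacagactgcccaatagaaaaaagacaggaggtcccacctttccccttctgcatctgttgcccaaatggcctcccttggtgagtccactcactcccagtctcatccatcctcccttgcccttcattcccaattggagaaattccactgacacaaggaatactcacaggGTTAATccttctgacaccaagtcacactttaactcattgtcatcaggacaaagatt
The near-identity of Slc22a28 and Slc22a30 extends into their transcripts. Of the 31-base words in the last 500 bases of Slc22a28 transcripts, 61.9% also occur in another gene, most often Slc22a30, against 8.77% for Slc22a30. Counts of these 2 genes are therefore uncertain, since reads from shared stretches cannot be assigned to 1 gene. The share was 28.1% for Slc22a13, with the pseudogene Slc22a13b-ps, and at most 2.67% for the other members.

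The family was read mainly in proximal tubule cells. Between 96.0% and 99.6% of each member's UMIs fell there. Slc22a8 was the most abundant member with 692 CPM in vehicle and 773 in CA3. Slc22a6 followed with 340 and 376, and Slc22a12, the urate carrier URAT1 of the brush border, with 280 and 311. Slc22a18, an orphan carrier, gave 266 and 267, and its interval overlapped that of Slc22a12 in vehicle (256 to 276 against 270 to 290). Slc22a2, the basolateral organic cation transporter OCT2, gave 160 and 162. The remaining 4 were rarer. Slc22a13, the urate and nicotinate carrier OAT10, gave 37.7 and 19.9, and Slc22a7, the organic anion transporter OAT2, gave 18.5 and 8.14. Slc22a28 gave 25.3 and 26.1 and Slc22a30 gave 14.8 and 14.4. The first 5 kept their order in both libraries, and the last 4 did not.

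The order by share of proximal tubule cells with at least 1 UMI was not the order by level: Slc22a18 was seen in 72.6% and 73.8% of cells and the more abundant Slc22a6 in 64.7% and 67.5%. Slc22a8 was seen in 85.2% of vehicle cells (83.2% to 87.0%) and 87.5% of CA3 cells (85.5% to 89.3%). As a background for counts that may come from RNA of other cells, the share was also read in T or NK cells, a type not known for organic anion uptake. There the Slc22a8 share was 17.6% (8.4% to 30.9%) and 11.5% (5.9% to 19.6%), at median depths of 5235 and 6082.5 UMIs against 7205 and 7920 in proximal tubule cells. After thinning every cell to 2000 UMIs the proximal tubule shares of Slc22a8 were 58.5% and 62.6% and the T or NK shares 7.8% and 4.2%. Slc22a7 was the member found in the fewest cells, 38 of 1435 in vehicle (2.6%) and 11 of 1160 in CA3 (0.9%).

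Along the tubule the members fell into 4 patterns. Proximal tubule cells were ranked by genes of S1 (such as Slc5a2, the glucose carrier SGLT2) minus genes of S3 (such as Slc5a8 and Slc7a12), none of them an Slc22 gene, and split into 5 equal ranges of 519 cells. Slc22a2, Slc22a6 and Slc22a12 climbed steadily from the S1 side to the S3 side. Slc22a8 had a shallower gradient and, with all cells of the last range included, peaked in the fourth range. Slc22a7 and Slc22a13 were nearly confined to the last range. Slc22a18, Slc22a28 and Slc22a30 had no common gradient. In all, 5 of the 9 members were at least 1.5-fold higher in the last than in the first range in both libraries and 0 were lower, against 8.20% of 10837 genes higher and 13.0% lower.

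Slc22a6 in vehicle read 110, 232, 355, 481 and 553 CPM from the first to the last range. In CA3 it read 128, 250, 415, 548 and 606. Every step was upward in both libraries, and the last range was 5.01 times the first in vehicle (4.39 to 5.73) and 4.73 times in CA3 (4.14 to 5.42). Slc22a12 rose from 129 through 183, 304 and 377 to 428 in vehicle. In CA3 it rose from 121 through 222, 293 and 424 to 537. The ends of that gradient differed by 3.31-fold (2.91 to 3.77) and 4.44-fold (3.87 to 5.12). Slc22a2 rose from 60.2 through 114, 136 and 184 to 310 in vehicle. It rose from 62.6 through 90.2, 165 and 219 to 296 in CA3. The organic cation carrier thus had a gradient of 5.14-fold (4.30 to 6.17) and 4.72-fold (3.90 to 5.76), close to that of the anion carrier Slc22a6 in size.

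Slc22a8, the chromosomal neighbour of Slc22a6 in the sequences above, was already high on the S1 side. It read 528, 615, 730, 865 and 756 in vehicle. In CA3 it read 554, 656, 823, 1016 and 888. The fourth range was the highest and the fifth lower in both libraries, and the ends differed by 1.43-fold (1.33 to 1.54) and 1.60-fold (1.49 to 1.73). The 2 neighbouring genes therefore differed in the steepness of their gradients. The fifth range held 49 of the 50 cells of the Slc7a12-led cluster described below, where Slc22a8 was at only 95.9 and 28.1 CPM. Without that cluster Slc22a8 was at least 1.5-fold higher in the last than in the first range in both libraries. Whether its fall after the fourth range remained without these cells was not tested. Slc22a18 stayed between 232 and 298 in every range of both libraries, with end-to-end ratios of 1.16 (1.04 to 1.30) and 1.01 (0.900 to 1.14). Slc22a28 read 35.7 and 21.1 at the ends in vehicle, 0.590 times (0.405 to 0.849), and 26.8 and 28.8 in CA3, 1.08 times (0.727 to 1.59). The vehicle direction turned among the cells poor in Malat1, described further on, where the first range was 0.494 times the last (0.0487 to 2.76). Slc22a30 read 20.1 and 13.9 in vehicle and 16.2 and 23.5 in CA3, and both intervals of the end-to-end ratio included 1.

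**Figure D1:**
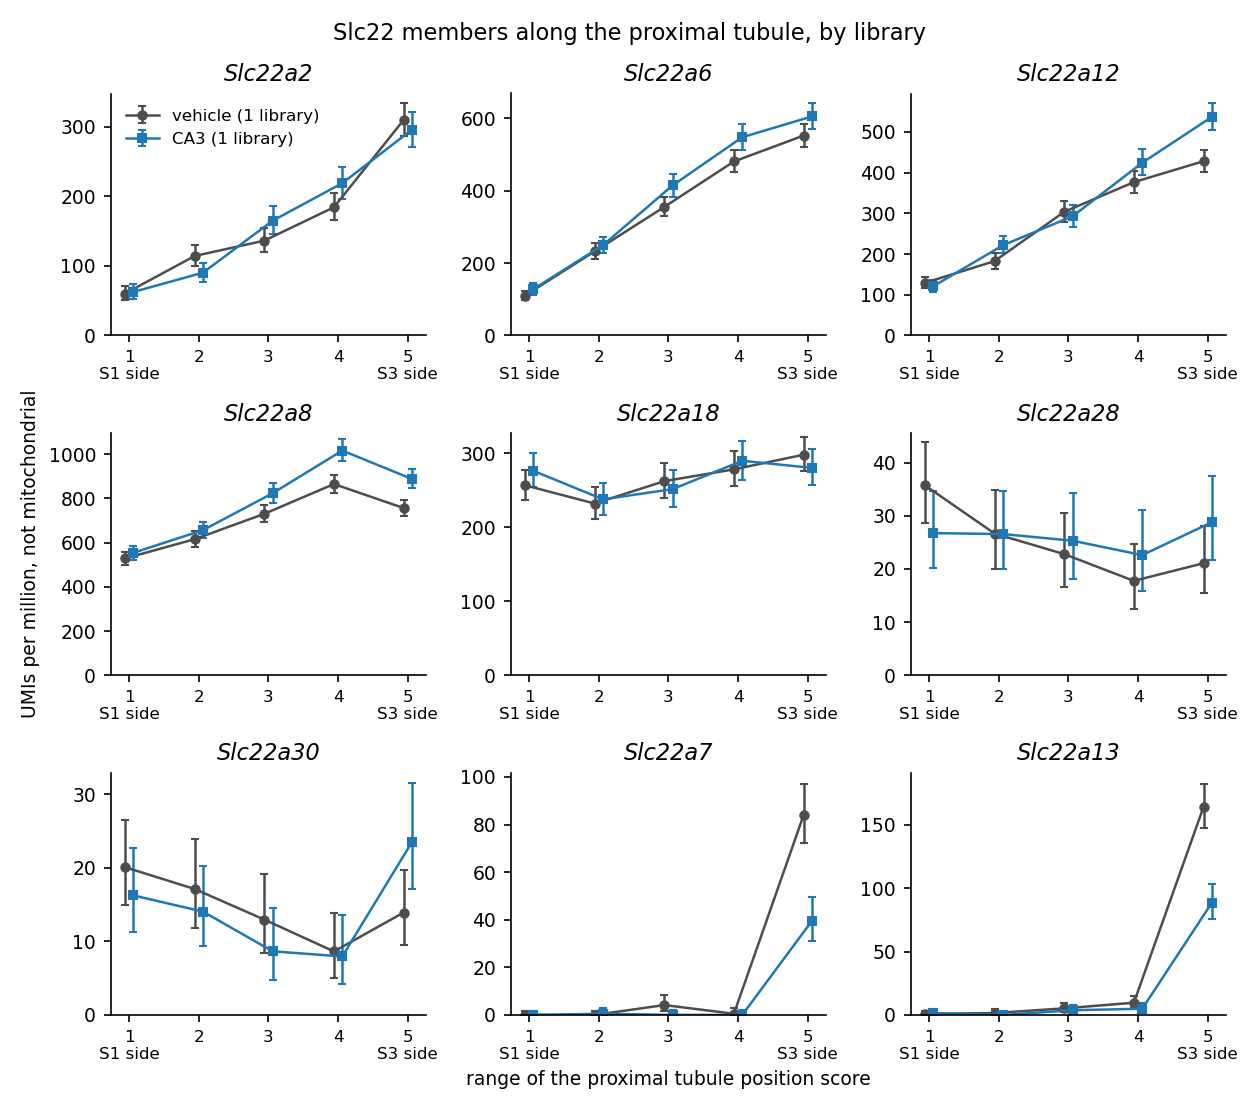
Level of each of the 9 members (CPM, vertical axis, each panel with its own scale from 0) in 5 equal ranges of the proximal tubule position score (horizontal axis) in the vehicle and CA3 libraries; bars are exact 95% Poisson intervals for counting error. Slc22a6 climbs from 110 to 553 in vehicle and from 128 to 606 in CA3, whereas Slc22a7 and Slc22a13 appear almost only in range 5.

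Slc22a7 and Slc22a13 marked the far S3 end. Slc22a7 had 0 UMIs in the first range of either library and 187 and 74 UMIs in the last. Against a floor of 3 UMIs in the first range, its last range was at least 69.6-fold higher in vehicle and at least 27.6-fold higher in CA3. The exact lower limits of these ratios, which count the sampling error of both ranges, were 56.1 and 21.9. Slc22a13 had 2 and 3 UMIs in the first range and 366 and 166 in the last, a ratio of 204 (56.2 to 1695) and 61.8 (20.8 to 303).

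Both genes were concentrated in 1 cluster of the 10. Its leading genes were Kap, Napsa, Slc7a12, Serpina1f, Aadat and Slc22a19, and it held 37 vehicle and 13 CA3 cells, 49 of these 50 in the last range. The S3 carriers Slc7a12 and Slc6a18 were at 2215 and 810 CPM there in vehicle and 2404 and 907 in CA3. The S1 carrier Slc5a2 was at 16.5 and 18.7, against 421 and 475 in the other proximal tubule cells. Slc7a12, an amino acid carrier, gave 1.65 and 0.659 CPM in the pooled other proximal tubule cells.

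Within this Slc7a12-led cluster the family was set differently from the rest of the tubule. Slc22a7 reached 608 CPM in vehicle and 683 in CA3, and 1.16 and 0.220 in the other proximal tubule cells. Of its 271 proximal tubule UMIs, 257 came from these 50 cells, where single cells held between 0 and 31. Slc22a13 reached 803 and 589, against 15.2 and 13.2 elsewhere, and the cluster gave 243 of its 400 UMIs in vehicle (60.8%) and 63 of 183 in CA3 (34.4%). Most of the others came from 2 proximal tubule clusters, 1 with 73.3 and 61.6 CPM and 1 with 47.7 and 39.6. Both genes were seen in the same cell in 29 of 37 vehicle cells and 9 of 13 CA3 cells.

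The remaining members divided into those kept and those lost at this end. Slc22a2 was at 578 and 645 in the cluster, 3.93 times (3.34 to 4.59) and 4.14 times (3.20 to 5.27) its level in the other proximal tubule cells. Slc22a12 was 1.56 times higher (1.30 to 1.86) in vehicle and 1.79 times higher (1.36 to 2.32) in CA3. Slc22a8, the most abundant member elsewhere, was low: 95.9 and 28.1 CPM, from 29 and 3 UMIs, against 709 and 782 in the rest. Slc22a6 stayed at 294 and 271 against 341 and 378, with ratios of 0.863 (0.691 to 1.06) and 0.718 (0.480 to 1.03), and 0.805 (0.665 to 0.965) over both libraries. These sums rested on few cells: Slc22a6 was seen in 16 of 37 vehicle cells (43.2%), with up to 27 UMIs in a cell, and in 7 of 13 CA3 cells, against 65.3% and 67.7% in the rest. For all genes, 6.80% were at least 1.5-fold higher and 29.7% lower in this cluster in both libraries. No member entered the clustering, but the cluster was found in these same cells and these values are a description.

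**Figure D2:**
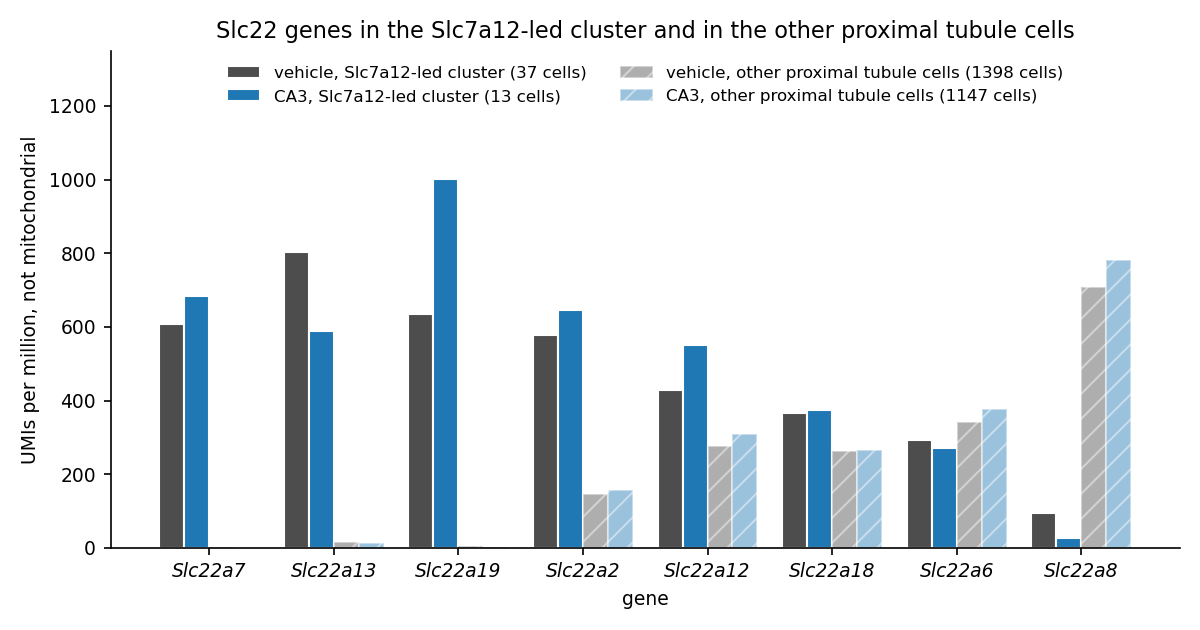
Level of 7 members and of Slc22a19 (CPM, vertical axis from 0) in the Slc7a12-led cluster (solid bars, 37 vehicle and 13 CA3 cells) and in the other proximal tubule cells (hatched bars), sums over cells of 1 library each with no error bars; intervals are in the text. Slc22a7 stands at 608 and 683 inside the cluster and at 1.16 and 0.220 outside, and Slc22a8 shows the opposite order.

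CA3 against vehicle was the study's treatment comparison. In proximal tubule cells as a whole, 2 of the 9 members were at least 1.5-fold lower in CA3, Slc22a7 and Slc22a13, and 0 were higher. Over all 11755 genes with enough UMIs, 4.05% were lower and 3.62% higher by the same rule, and among the 8165 genes with at least 200 UMIs 0.698% were lower. Slc22a7 read 18.5 CPM in vehicle and 8.14 in CA3, a ratio of 0.440 (0.333 to 0.577), from 196 and 75 UMIs. Slc22a13 read 37.7 and 19.9, a ratio of 0.526 (0.440 to 0.629), from 400 and 183 UMIs.

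The number of cells in the Slc7a12-led cluster moved with these 2 ratios. It made up 2.58% of proximal tubule cells in vehicle (1.82% to 3.54%) and 1.12% in CA3 (0.598% to 1.91%). Within the cluster Slc22a7 had a ratio of 1.12 (0.844 to 1.48) and Slc22a13 of 0.734 (0.547 to 0.972), and 0 of these 2 were called. Slc22a8 was called lower there, with a ratio of 0.293 (0.0571 to 0.944), from 29 UMIs in vehicle and 3 in CA3. Of 3028 genes, 10.4% were called higher and 25.2% lower in the cluster. Without the cluster Slc22a13 had a ratio of 0.865 (0.676 to 1.10), and Slc22a7 had only 12 and 2 UMIs, too few for a call, so that 0 members were called. Slc7a12 itself, which does not belong to the family, had a ratio of 0.441 (0.381 to 0.509) in all proximal tubule cells and 1.09 (0.936 to 1.26) within the cluster. The cluster was picked by this gene, so the ratios of Slc7a12 are not independent of the cluster's share of cells. Slc22a19, another organic anion carrier of the cluster, had 0.660 (0.529 to 0.820) in all proximal tubule cells and 1.58 (1.23 to 2.01) within it. With 1 library a group, a treatment effect on these cells and a difference in which tissue entered the suspension cannot be told apart.

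The more abundant members shifted little. Slc22a8 was 692 in vehicle and 773 in CA3, a ratio of 1.12 (1.08 to 1.16). Slc22a6 had a ratio of 1.11 (1.06 to 1.16) and Slc22a12 of 1.11 (1.06 to 1.17). Slc22a2 had 1.01 (0.944 to 1.09), Slc22a18 1.004 (0.951 to 1.06), Slc22a28 1.03 (0.866 to 1.24) and Slc22a30 0.975 (0.768 to 1.24). The 3 ratios near 1.1 had intervals above 1, as had 15.9% of the 3235 genes with at least 1000 UMIs, while 21.2% of those genes had intervals below 1. Such narrow intervals reflect deep counts and say nothing of the spread between mice. By position, Slc22a8 had CA3 ratios from 1.05 in the first range to 1.18 in the fourth, and Slc22a6 from 1.07 to 1.17. For both genes the intervals included 1 in the first 2 ranges and lay above 1 in the other 3. Slc22a12 had ratios of 0.935 and 0.964 in the first and the third range, with intervals that included 1. Its ratios were 1.21 in the second range, 1.13 in the fourth and 1.254 (1.15 to 1.37) in the last. These intervals lay above 1, so its ratios did not rise steadily along the tubule.

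**Figure D3:**
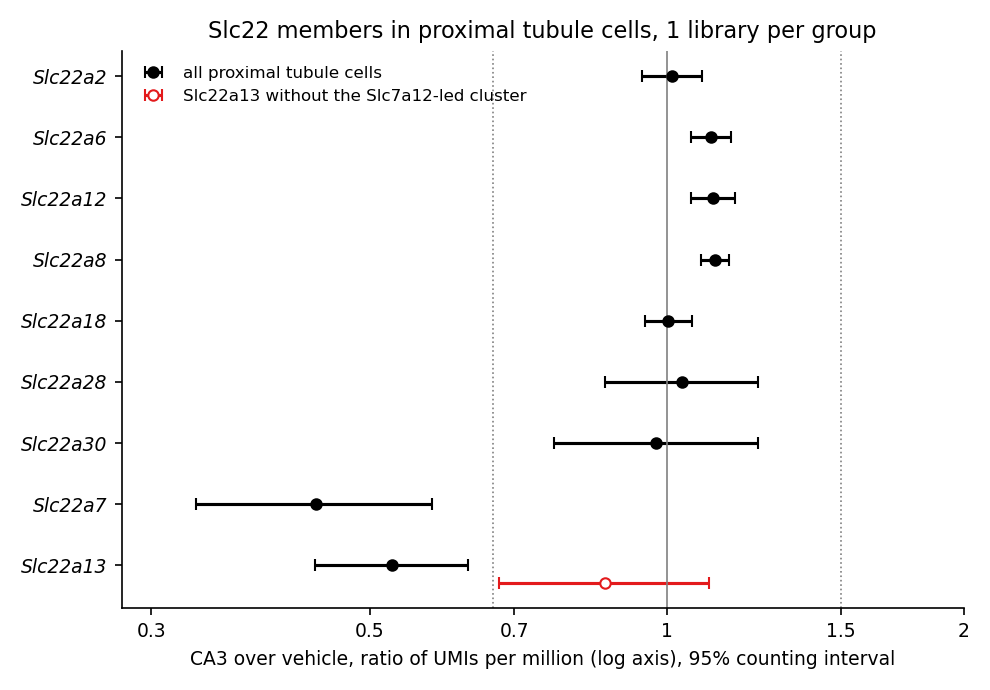
Ratio of CPM in CA3 over vehicle for the 9 members in proximal tubule cells (horizontal log axis), 1 library per group; bars are exact 95% intervals for counting error and dotted lines mark 1.5-fold. Slc22a7 and Slc22a13 lie at 0.440 and 0.526, the other 7 between 0.975 and 1.12, and Slc22a13 without the Slc7a12-led cluster (open red point) lies at 0.865.

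Slc22a28 and Slc22a30 divided the cells by another feature than position. Proximal tubule cells held either much or little Malat1, a long noncoding RNA kept in the nucleus: with a limit of 10000 CPM, 524 vehicle and 417 CA3 cells were Malat1-rich and 911 and 743 Malat1-poor, and only 37 and 7 cells lay within a factor of 2 of the limit. Slc22a30 was at 26.3 CPM in Malat1-rich and 2.18 in Malat1-poor cells of the vehicle library, and at 25.1 and 1.67 in CA3. It was 12.1 times higher (6.55 to 24.7) and 15.1 times higher (7.11 to 38.3). Slc22a28 was at 41.9 and 6.93 in vehicle and at 40.9 and 8.57 in CA3, ratios of 6.05 (4.23 to 8.90) and 4.77 (3.34 to 7.003). Both genes had this split in both libraries, but their counts may not be separate, given their shared transcript ends.

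The abundant members did not show it, and Slc22a7 went the other way, with Malat1-rich over Malat1-poor ratios of 0.516 (0.380 to 0.696) and 0.160 (0.0783 to 0.299). Slc22a13 had 0.822 (0.672 to 1.01) and 0.680 (0.502 to 0.920). In the Slc7a12-led cluster, which gave most Slc22a7 UMIs, 13.5% of vehicle and 15.4% of CA3 cells were Malat1-rich. Among all proximal tubule cells the shares were 36.5% and 35.9%. The part of this make-up in the Slc22a7 ratios was not tested. Slc22a8 had Malat1-rich over Malat1-poor ratios of 1.17 (1.11 to 1.22) and 1.10 (1.05 to 1.15), Slc22a6 of 1.08 and 0.989, and Slc22a12 of 1.03 and 0.958. Slc22a2 had 0.882 and 0.792 and Slc22a18 0.918 and 0.897. Malat1 itself stayed in the CPM total, with medians of 165892 and 158728 CPM in Malat1-rich cells and 669 and 837 in Malat1-poor cells. Its share of the total lowers the ratios of all other genes, and the size of this effect was not tested. Slc22a29, which lies between Slc22a28 and Slc22a30 on the same strand, had 3.16 (2.69 to 3.72) and 3.89 (3.20 to 4.76). Over all genes, 30.2% were at least 1.5-fold and 6.39% at least 4-fold higher in Malat1-rich cells in both libraries. Malat1-rich cells were also deeper, with medians of 11095 and 12674 UMIs against 5794 and 6036, and had lower mitochondrial shares, 11.9% and 12.6% against 21.9% and 24.0%. They were most frequent in the first range of the position score, at 56.9% and 55.8%, against 36.7% and 39.6% in the last. Their part in the vehicle gradient of Slc22a28 was not tested beyond these values: within Malat1-rich cells Slc22a28 read 48.1 and 33.6 at the 2 ends in vehicle and 33.3 and 38.9 in CA3.

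**Figure D4:**
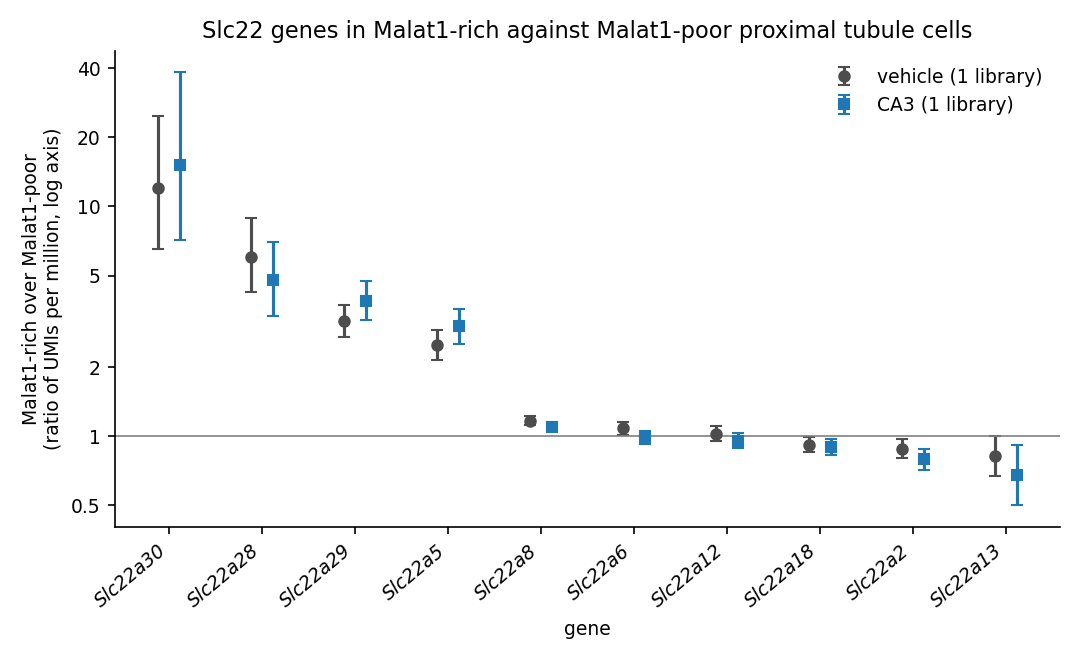
Ratio of CPM in Malat1-rich over Malat1-poor proximal tubule cells (vertical log axis) for 10 Slc22 genes in the vehicle and CA3 libraries; bars are exact 95% intervals for counting error. Slc22a30 and Slc22a28 lie between 4.77 and 15.1 in both libraries, and Slc22a8, Slc22a6, Slc22a12, Slc22a18 and Slc22a2 between 0.792 and 1.17.

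One further cluster of the proximal tubule had low levels of the abundant members. It held 84 vehicle and 62 CA3 cells with a median mitochondrial share of 3.95% and 3.65%, against 18.7% and 20.3% in the other proximal tubule cells. Slc22a8 was at 165 and 162 CPM there, against 725 and 806 in the rest. Slc22a6 was at 84.1 and 94.0 against 356 and 392, and Slc22a18 at 57.1 and 61.9 against 279 and 278. In this cluster 27.2% of 11755 genes were at least 1.5-fold lower in both libraries. Among the reference genes of the proximal tubule, Slc34a1, the phosphate carrier, was 0.205 and 0.193 times its level in the rest, and Lrp2, an endocytic receptor, 0.342 and 0.341 times. Pck1, an enzyme of gluconeogenesis, was 0.923 and 0.927 times its level in the rest, and Miox, which breaks down inositol, was 1.55 and 1.61 times higher. Slc22a7 and Slc22a13 had 0 UMIs there, and Slc22a28 and Slc22a30 at most 2. Without these cells the counts of called members were the same, 2 in CA3 against vehicle and 5 along the tubule.

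Outside the proximal tubule no member exceeded its proximal tubule level in any class of at least 30 cells, whereas 66.8% of 13219 genes did so in at least 1 class. To set a background, the level of each member as a percentage of its proximal tubule level was placed beside the same percentage for 10 proximal tubule genes that serve as reference for free or carried-over RNA. In thick ascending limb cells of the vehicle library Slc22a8 stood at 15.4% (12.1% to 19.4%), where the reference genes ranged from 1.19% to 16.4%. In CA3 it stood at 2.97% (1.28% to 5.86%), and the reference genes from 0.561% to 5.71%. Levels of the members in this class thus moved with those of the reference genes, whose median was 12.3% in vehicle and 2.31% in CA3. In distal convoluted and connecting tubule cells Slc22a12 stood at 11.6% (8.23% to 15.9%) and 18.9% (13.9% to 25.2%), with reference genes up to 15.3% and 14.5%. Slc22a2 stood at 23.5% (15.3% to 34.5%) in thick ascending limb cells of vehicle, from 26 UMIs, and at 1.78% in CA3, from 1 UMI. No member had a percentage interval above all reference genes in either library.

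**Figure D5:**
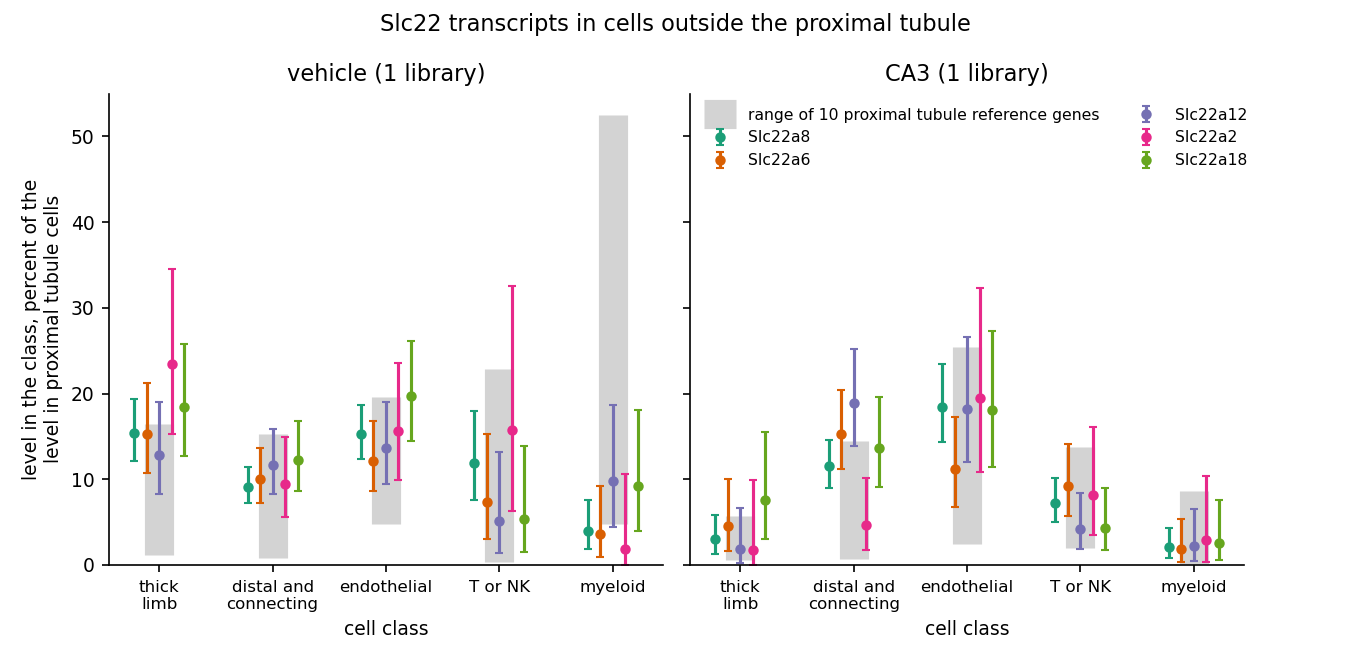
Level of 5 members in 5 classes outside the proximal tubule as a percentage of the level in proximal tubule cells (vertical axis) in the vehicle and CA3 libraries; bars are exact 95% intervals for counting error and grey bands span 10 proximal tubule reference genes. In the thick ascending limb points and band are lower in CA3 (Slc22a8 at 2.97%) than in vehicle (15.4%).

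Other genes of the family were read outside the proximal tubule. Slc22a15, an orphan carrier, was at 25.1 and 24.7 CPM in T or NK cells and 20.7 and 21.0 in endothelial cells, against 1.04 and 0.759 in proximal tubule cells. Slc22a17, a receptor for the iron carrier protein lipocalin, was at 40.3 and 51.7 in thick ascending limb cells against 15.9 and 17.8 in the proximal tubule. Slc22a4, a carrier of ergothioneine, was at 53.3 and 20.1 in thick ascending limb cells against 40.7 and 42.5. Of the 11 other Slc22 genes with at least 20 UMIs in the proximal tubule, 1 (Slc22a19) was called lower in CA3 and 0 higher. Over all genes 4.05% were lower and 3.62% higher. In both libraries 5 of the 11 were called higher in the last range and 1 lower, against 8.20% and 13.0% of all genes. The lower gene was Slc22a23, at 0.352 (0.282 to 0.436) and 0.383 (0.305 to 0.479) times the first range. Slc22a22, a prostaglandin carrier, had 5.12 (3.27 to 8.33) and 3.93 (2.54 to 6.27). Slc22a5, the carnitine carrier OCTN2, had 1.17 and 1.83. Of its end words 83.2% are shared with Slc22a21, so its counts are uncertain too.

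The carriers and regulators that work with the family were read from a list of 34 genes. Of the 31 with enough UMIs in the proximal tubule, 0 were called higher and 3 lower in CA3, against 3.62% and 4.05% of all genes. The 3 were Abcb1a, Slco4c1 and Esr1. The median log2 ratio was -0.04, against 0.01 over all genes. Abcb1a, an apical drug efflux pump, read 13.4 and 8.35 CPM, a ratio of 0.624 (0.467 to 0.829). Slco4c1 and Esr1, which are named because so few genes were called, rested on 35 and 12 UMIs and on 39 and 18 UMIs. Prlr, the prolactin receptor, read 336 and 243, a ratio of 0.724 (0.686 to 0.763), and end-to-end ratios along the tubule of 7.29 and 5.59. Slc13a3, the basolateral dicarboxylate carrier that maintains the exchange gradient for OAT1 and OAT3, read 331 and 392, a ratio of 1.18 (1.13 to 1.24). Its end-to-end ratios were 3.86 and 3.26.

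Of the exit carriers, Slc47a1, the apical cation exporter MATE1, read 447 and 436 and had end-to-end ratios of 1.04 and 1.03, beside the steep gradient of the uptake carrier Slc22a2. Abcc4, the anion exporter MRP4, read 50.8 and 55.1, with 0.719 and 0.986. Slc2a9, a urate carrier, had only 41 and 51 UMIs. Abcb1b, a second drug efflux pump, had a CA3 ratio of 0.858 (0.703 to 1.05), Slco2a1, the prostaglandin carrier, 0.760 (0.554 to 1.04), and Slc5a12, a lactate carrier used in the S1 list, 0.826 (0.795 to 0.859). Of the 30 partner genes that could be compared along the tubule, 13 were called higher and 1 lower in the last range in both libraries, against 8.20% and 13.0% of all genes. The 1 lower gene was Slc5a12, whose fall was fixed in advance because the S1 list sets the position score. Partner genes that are also in the S1 or S3 list were not removed from these counts.

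The genes whose levels followed a member most closely over the 17 clusters of at least 30 cells are given as Pearson's r of log2(CPM + 1), a description over clusters that share libraries and depth. They were chosen among 6920 genes. Slc22a8 was closest to Slc51a (r = 0.987), Slc34a1 (0.972) and Sucnr1 (0.963), and Slc22a6 to Rdh16f2 (0.969), Nat8f1 (0.964) and Nat8 (0.963). Slc22a12 was closest to Adtrp (0.982), Nat8f1 (0.979) and Slc27a2 (0.977), and Slc22a2 to Mettl7b (0.975), Proc (0.969) and Slc27a2 (0.969). Slc22a18 was closest to Folr1 (0.982), Mfsd4b5 (0.980) and Clrn3 (0.980). Slc22a7 was closest to Slc7a12 (0.939), Cyp51 (0.865) and Kap (0.782), and Slc22a13 to Napsa (0.910), Cyp51 (0.909) and Tmem189 (0.899). Slc22a28 was closest to Slc18a1 (0.938), Gria3 (0.934) and Neu1 (0.931), and Slc22a30 to Slc11a2 (0.880), Snhg11 (0.847) and Per3 (0.847).

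Over the 10 proximal tubule clusters alone, where the shared contrast with other cell types is removed, the genes were as follows. Slc22a6 was closest to Cyp4a14 (0.958), Nrp1 (0.957) and its relative Slc22a12 (0.953), and Slc22a12 to Slc5a1 (0.987), Adtrp (0.980) and Cyp4a10 (0.979). Slc22a2 was closest to Ggt1 (0.994), Mep1a (0.989) and Mfsd4b1 (0.985), and Slc22a8 to Sucnr1 (0.968), Slc51a (0.967) and Tspan5 (0.945). Slc22a7 was closest to Kcnk1 (0.976), Slc7a12 (0.974) and Cebpd (0.974), and Slc22a13 to Napsa (0.977), Kap (0.965) and Agt (0.962). Slc22a18 was closest to Folr1 (0.994), Tmco1 (0.987) and Cd63 (0.986), Slc22a28 to Clcn3 (0.985), Slc5a9 (0.985) and Sun1 (0.978), and Slc22a30 to Eif2ak3 (0.971), Eif4g3 (0.965) and Zfp598 (0.960). In both sets Sucnr1 and Slc51a stood beside Slc22a8, Slc7a12 beside Slc22a7, Adtrp beside Slc22a12, Napsa beside Slc22a13 and Folr1 beside Slc22a18. The 10 clusters are part of the 17, so the sets are not independent. Of the 271 proximal tubule UMIs of Slc22a7, 257 came from the Slc7a12-led cluster, so its r values rest mainly on that cluster.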

How the data were processed

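Single cells of whole kidney were profiled in 2 libraries, 1 vehicle and 1 CA3. The authors deposited whole-number UMI count matrices for each library, made with Cell Ranger 3.0.1 on mm10, per the submitters' processing notes. The libraries held 1967 and 1724 barcodes, with 19592239 and 17013222 UMIs. Barcodes under 500 genes or over 50% mitochondrial UMIs (200 and 230) were left out, as were 1 and 3 that Scrublet marked as doublets. So few marks mean that doublets were in effect not removed. With scanpy 1.11.5 (Python 3.11.15), 2000 variable genes without Slc22 genes, 30 principal components, 15 neighbours and Leiden resolution 1.0 gave 19 clusters, named from marker lists. UMIs were summed per class and library and divided by UMIs of genes not encoded in mitochondria. Exact binomial and Poisson intervals came from scipy 1.17.1, and the ratio step was tested on simulated data. No p-value is given, since each group is 1 library. The position score was the mean z-score of 6 S1 genes minus that of the S3 genes.

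Named were all members, other Slc22 genes with at least 50 UMIs (1 of which is not reported here), the 6 partner genes with at least 100 UMIs and CA3 ratios furthest from 1 on a log scale, 4 partner genes whatever their values, and 3 like genes for each member. Slc22a14 is named only for its position, and Slco4c1 and Esr1 after their values were seen. Slc22a21 meets the limit of 50 UMIs but is mentioned only for its shared sequence, and its levels are not given. Members and lists were chosen with earlier results of these data known. Alternatives changed the cell filter, clustering, totals, thinning, position ranges and cells used.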

Additional observations from a re-analysis of the deposited data

Results flagged for a closer look

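In 3 members the CA3 to vehicle ratio lay above 1 in proximal tubule and distal cells and below 1 in thick ascending limb cells, with intervals that left out 1. The difference between the classes was not tested. Slc22a8 had 1.12 in the proximal tubule, 1.41 (1.003 to 1.97, from 76 and 71 UMIs) in distal convoluted and connecting tubule cells and 0.216 (0.0897 to 0.447, from 74 and 8 UMIs) in the thick ascending limb. Slc22a6 had 1.11, 1.69 (1.08 to 2.64) and 0.332 (0.114 to 0.796) in the same order. Slc22a12 had 1.11, 1.81 (1.16 to 2.85) and 0.159 (0.0183 to 0.640). The 10 proximal tubule reference genes moved the same way: their median percentage of the proximal tubule level was 12.3% in vehicle and 2.31% in CA3 in the thick ascending limb, and 7.02% and 9.16% in distal cells. The part of carried-over RNA in these ratios was not tested.

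Slc22a2 changed sides along the tubule. Its ratio was 0.790 (0.646 to 0.965) in the second range, 1.21 (1.02 to 1.44) in the third and 1.19 (1.02 to 1.38) in the fourth. This difference between ranges was not tested either, and the ratio over all proximal tubule cells was 1.01.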

How the results depend on the processing

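Of the counts of members, 1 moved by more than 1.5 times. Without the Slc7a12-led cluster, an alternative chosen after seeing the data, the number of members past 1.5-fold between CA3 and vehicle was 0 instead of 2. Over the other alternatives the 3 counts stayed within 1.5 times: between 5 and 6 members were higher late in the tubule, and 0 were higher outside it. Without that cluster 5 members were still called along the tubule, but Slc22a8 took the place of Slc22a7. Single ratios of members stayed within the interval of the main setting in 338 cases and moved outside it in 57. The vehicle ratio of the first to the last range of Slc22a28 reversed, from 1.69 to 0.494 (0.0487 to 2.76), among Malat1-poor cells alone, an alternative also chosen after seeing the data; the cause was not tested. Over 14 alternatives the CA3 ratio ranged from 0.182 to 0.606 for Slc22a7, from 0.405 to 0.865 for Slc22a13, from 1.09 to 1.15 for Slc22a8 and from 1.06 to 1.16 for Slc22a6. Slc22a7, Slc22a28 and Slc22a30 rest on few UMIs, which limits their ratios. No paired analysis was possible because each group is 1 library.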

Other observations

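One family gene outside the 9 members was also concentrated at the S3 end. Slc22a19, a steroid sulfate and organic anion carrier, had 1 UMI in the first range of the vehicle library and 219 in the last, and 0 and 128 in CA3. Of its 365 proximal tubule UMIs, 299 came from the 50 cells of the Slc7a12-led cluster. Slc22a30 was also read there at 19.8 CPM in vehicle and 112 in CA3, from 6 and 12 UMIs.

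The chromosome 19 genes did not share 1 pattern along the tubule. Slc22a29 had end-to-end ratios of 0.794 (0.652 to 0.965) and 0.854 (0.682 to 1.07), beside 5.01 and 4.73 for Slc22a6. The carnitine carrier Slc22a5 on chromosome 11 shared the Malat1 split, with 2.49 (2.14 to 2.91) and 3.01 (2.53 to 3.59).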
